A study of Homo sapiens with 4 samples.

Results

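The cytosolic ribosomal protein genes encode the protein part of the ribosome, and their promoters were examined for chromatin accessibility after loss of SETD8 in Kasumi-1 cells. Members were the genes whose symbol follows the pattern of the large subunit (RPL), small subunit (RPS, with RPSA) or stalk (RPLP) proteins and to which the annotation gives a promoter peak, a promoter being within 3 kb of a start site. Where a gene had more than 1 such peak, that with the highest mean level was used. This chose 52 genes, of 77 such genes in RefSeq and of 10187 genes with any promoter peak, and all 52 peaks lay at distance 0 from the annotated start.

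Kasumi-1 is an established line from an acute myeloid leukaemia with the t(8;21) translocation, and SETD8, now called KMT5A, places a single methyl group on lysine 20 of histone H4. The series holds 2 libraries labelled SETD8 knockout, made by CRISPR/Cas9, and 2 labelled sgNT with the genotype WT. The sources used here do not say whether knockout cells were a clone or a pool, which guide each library had or how long after editing cells were taken. ATAC-seq counts the places where a transposase can cut, so a peak level measures how open a site is over all cells of a library, and fewer open cells and less cutting per cell cannot be told apart. The series as titled is about enhancers and mitochondrial homeostasis in leukaemia stem cells.

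Each ribosome holds 1 copy of nearly every one of these proteins, so their genes are expressed together at high levels in dividing cells. Their messages begin with a C followed by a tract of pyrimidines, the 5′ terminal oligopyrimidine or TOP motif, through which the mTOR pathway controls their translation, and the matching initiator in the DNA sits on the start site. Reduced dose of single members causes Diamond-Blackfan anaemia, a failure of red cell production, and the 5S particle of RPL5 and RPL11 binds MDM2 and so links ribosome assembly to p53.

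Values came from 2 tables that the authors deposited, each with 1 row per peak in hg38. The first holds 20556 peaks, 11787 of them at promoters, and names no library. The second holds 13577 peaks, 9043 of them matched to promoters of the first by overlap, and gives the level of the knockout and sgNT libraries numbered 2. Those libraries had 2091322 and 5345251 reads in peaks, and with 1 library per group the second table has no replicate check. The KMT5A promoter stood at -0.82 in the authors' first deposited table and at -1.45 in the authors' second deposited table, with 251 normalised reads in the knockout library and 685 in the sgNT library, and an edit in coding sequence need not alter that peak. Of 7 myeloid markers (SPI1, CEBPA, KIT, CD34, MPO, RUNX1, RUNX1T1) 5 had a promoter peak, MPO and RUNX1T1 being without one, and of CD3E, GATA1 and HBB none had. Processed pseudogenes copy the exons of many ribosomal protein genes, and the sources used here do not say how reads that map to several places were treated.

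The start sites under these peaks carried the TOP signature in most cases. RefSeq promoter windows of GRCh38.p14, from 250 bases before to 50 after a start, were matched by symbol for 42 members, and in 41 of them the start lay inside the peak. Of these 41, 34 (82.9%) started on C and 32 (78.0%) had 5 pyrimidines from the start on, against 13.1% and 5.5% of the 10924 windows whose start lay under a promoter peak of the first table. Shown here, in lower case with the unbroken run of C and T over the start in capitals, are the windows of 3 genes with the lowest and then 3 with the highest fold change relative to other promoters, on chromosomes that may be printed and with a start under the peak.
RPS16, chr19:39435900-39436199, minus strand: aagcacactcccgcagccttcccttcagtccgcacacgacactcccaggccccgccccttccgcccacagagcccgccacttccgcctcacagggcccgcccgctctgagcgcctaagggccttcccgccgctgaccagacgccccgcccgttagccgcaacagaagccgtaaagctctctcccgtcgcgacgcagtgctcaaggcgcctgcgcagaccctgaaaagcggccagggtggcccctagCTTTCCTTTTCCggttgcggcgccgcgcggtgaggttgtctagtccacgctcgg
RPS6, chr9:19380187-19380486, minus strand: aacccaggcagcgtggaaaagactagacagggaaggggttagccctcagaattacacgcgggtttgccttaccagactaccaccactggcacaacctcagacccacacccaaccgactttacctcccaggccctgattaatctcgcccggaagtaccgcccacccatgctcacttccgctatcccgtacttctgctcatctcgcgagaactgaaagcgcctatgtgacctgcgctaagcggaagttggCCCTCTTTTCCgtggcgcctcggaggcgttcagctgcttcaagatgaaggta
RPL38, chr17:74203428-74203727, plus strand: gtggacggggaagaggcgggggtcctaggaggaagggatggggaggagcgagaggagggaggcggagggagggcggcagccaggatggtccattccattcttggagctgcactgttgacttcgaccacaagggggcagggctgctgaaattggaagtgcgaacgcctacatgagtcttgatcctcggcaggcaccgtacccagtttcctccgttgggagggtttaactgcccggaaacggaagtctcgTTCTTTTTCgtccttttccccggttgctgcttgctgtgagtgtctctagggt
RPL36, chr19:5690045-5690344, plus strand: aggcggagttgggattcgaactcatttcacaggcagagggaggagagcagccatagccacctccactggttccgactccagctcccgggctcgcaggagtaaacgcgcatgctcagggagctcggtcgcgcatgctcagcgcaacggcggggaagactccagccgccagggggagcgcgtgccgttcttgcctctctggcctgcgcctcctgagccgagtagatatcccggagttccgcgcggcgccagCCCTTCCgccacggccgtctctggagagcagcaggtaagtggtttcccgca
RPL10, chrX:154397815-154398114, plus strand: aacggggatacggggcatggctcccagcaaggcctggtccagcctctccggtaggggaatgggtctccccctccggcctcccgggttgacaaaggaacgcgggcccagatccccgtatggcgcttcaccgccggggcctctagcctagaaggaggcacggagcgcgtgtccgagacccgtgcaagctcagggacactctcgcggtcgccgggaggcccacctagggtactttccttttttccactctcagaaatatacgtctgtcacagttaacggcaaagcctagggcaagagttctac
RPL22, chr1:6199546-6199845, minus strand: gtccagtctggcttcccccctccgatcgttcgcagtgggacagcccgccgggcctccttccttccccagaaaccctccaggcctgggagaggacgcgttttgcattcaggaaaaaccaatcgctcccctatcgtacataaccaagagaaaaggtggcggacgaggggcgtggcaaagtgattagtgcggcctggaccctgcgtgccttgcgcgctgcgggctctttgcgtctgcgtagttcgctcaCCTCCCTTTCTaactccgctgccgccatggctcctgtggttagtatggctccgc
RPS16, RPS6 and RPL38 had runs of 12, 11 and 9 pyrimidines over the start, RPL36 and RPL22 runs of 7 and 11, and the RefSeq start of RPL10 that lay nearest its peak's centre fell on A, so no letter of it is in capitals. Runs of pyrimidines over the start were thus present in genes at either end of the order.

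Other short motifs were searched on both strands of the 41 windows. The pyrimidine strings CTTTCC and CTTTTC occurred in 19 (46.3%) and 12 (29.3%) windows, against 26.7% and 17.1% of windows under promoter peaks, and they can overlap the start tract. CTCTTTCC, a longer form that contains CTTTCC, occurred in 6 (14.6%), against 3.0%. The ETS core CCGGAAG was found in 11 (26.8%, against 22.4%) and the YY1 core AAGATGGC in 5 (12.2%, against 6.0%). SP and KLF boxes, read as GGGCGG, were found in 24 windows (58.5%, against 74.7%), the E-box CACGTG in 1 (2.4%, against 10.5%), TATAAA in 2 (4.9%, against 4.3%) and the NRF1 core GCGCATGC in 2 (4.9%, against 6.6%). Over all 35116 RefSeq windows CTTTCC was in 26.3%, CTTTTC in 21.0%, CTCTTTCC in 3.0%, CCGGAAG in 10.3%, AAGATGGC in 2.9%, GGGCGG in 45.0%, CACGTG in 7.3%, TATAAA in 11.5% and GCGCATGC in 3.1%. Members were poorer in G and C, with a median of 60.0% (range 44.3% to 72.3%) against 66.0% for windows under promoter peaks. These are matches of letters and were not tested as binding sites.

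**Figure D1:**
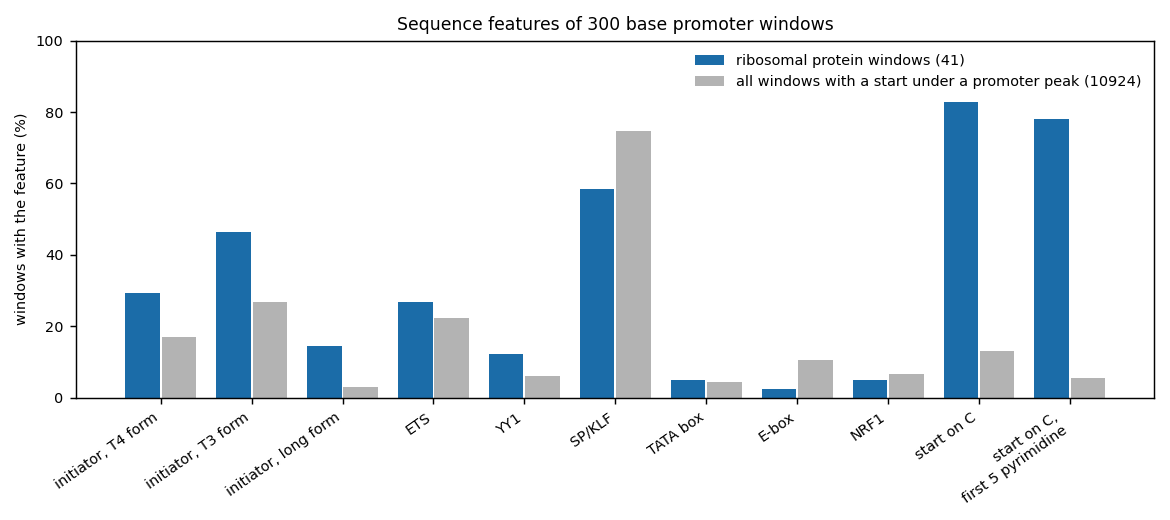
Share of promoter windows (%, y axis) with each sequence feature (x axis), for the 41 ribosomal protein windows (blue) and the 10924 windows whose start lies under a promoter peak of the first table (grey). A start on C with 5 pyrimidines stands in 78.0% of ribosomal protein windows and 5.5% of all.

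Levels of ribosomal protein promoters covered a wide range. Mean levels over the libraries of the first table had a median of 334 normalised reads per kb of peak among members (range 99.9 to 1049), against 302.5 over the strongest promoter peak of each of the 10187 genes, chosen in the same way, a difference that was not tested. Peak width had a median of 696.5 bp (range 341 to 1334), against 755 bp over those strongest peaks. Among the highest by mean level were RPSA, a 40S protein also described as a laminin receptor, with 714 normalised reads or 1049 per kb and RPL37 with 568 or 810.4 per kb. At the low end stood RPS7, which also binds MDM2, with 34.1 normalised reads or 99.9 per kb, RPS27 with 63.6 or 176.5 per kb and RPL21 with 73.5 or 140.0 per kb.

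As deposited, nearly all members had a lower level in the SETD8 knockout, as did promoters as a whole. The member median was -0.83 on the log2 scale in the first table (quartiles -1.13 and -0.58, 52 genes), against -0.92 over all promoter peaks (quartiles -1.18 and -0.64). In the second table it was -1.235 (quartiles -1.41 and -1.065, 46 genes with an overlapping peak), against -1.26 (quartiles -1.44 and -1.07). The members thus stood 0.09 and 0.025 above the promoter median, and 31 of 52 and 24 of 46 lay above it. Centred on the median of all peaks, -0.87 and -1.23, the member medians were 0.04 and -0.005, so the direction as deposited rests on the authors' scaling of the libraries, which the sources used here do not describe.

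Members past a given fold size made up shares on either side of those of all promoters, depending on the measure. Lower by at least 1 on the log2 scale, a factor of 2, were 17 of 52 members (32.7%) in the first table, against 42.0% of all promoter peaks. Above 0 were 3 (RPL8, RPL10 and RPS2), against 3.28%. In the second 37 of 46 were lower by at least 1, against 82.8%, and 0 of 46 were above 0, against 0.0442%. More than 0.5 from the promoter median were 14 of 52 members in the first table, 9 above and 5 below, where the background was 22.8%, and in the second 1 of 46, RPL37A, where it was 8.99%.

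No member passed the authors' test. Among members RPS6 had the smallest p, 0.105, of the authors' first deposited table (adjusted p = 0.731), and RPL23A that of the authors' second deposited table, 0.208 (adjusted p = 0.578). Counts at an adjusted p under 0.05 were 0 of 52 and 0 of 46, with 0.0% of all peaks in either table, and at an unadjusted p under 0.05 they were again 0 of 52 and 0 of 46, beside 1.6% and 0.14% of all peaks. A limma fit took the 2 deposited fold changes of each of 11117 peaks joined in pairs and set their mean against 0. As deposited it called 43 of 46 members, where 96.7% of all joined peaks were called. With each table centred on its median that fit called 0 of 46, beside 0.054% of joined peaks. It takes the tables as independent, which was not tested, because the first names no library.

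**Figure D2:**
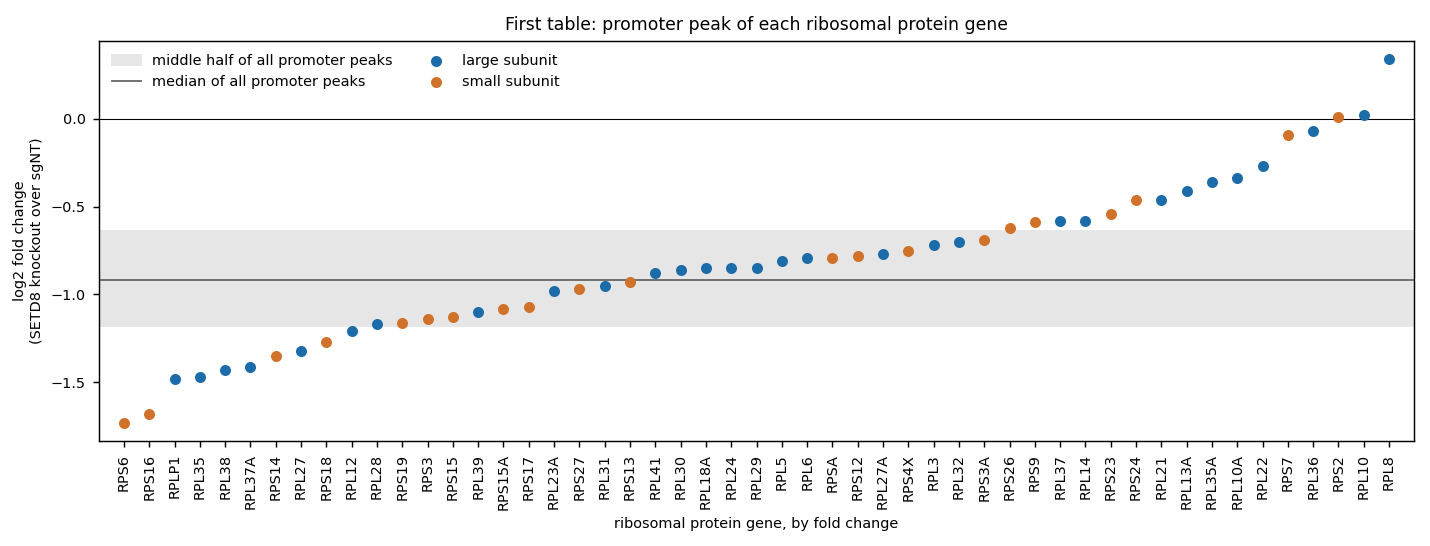
Log2 fold change of SETD8 knockout over sgNT in the first table (y axis) at the promoter peaks of the ribosomal protein genes, with 1 of the 52 not shown (x axis, by value), coloured by subunit, with RPLP1 drawn as large subunit. The line and band give the median (-0.92) and quartile range of all promoter peaks; members run from -1.73 (RPS6) to 0.34 (RPL8).

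Fewer normalised reads were counted in the knockout library of the second table than in the sgNT library at each of the 46 promoters. Knockout levels ran from 66 to 329 reads with a median of 168, and sgNT levels from 121 to 729 normalised reads with a median of 392. As a share of its own reads in peaks, each library held nearly the same amount there. Together the 46 peaks held 0.386% of the knockout reads in peaks (8076 reads, exact 95% interval 0.378% to 0.395%) and 0.388% of the sgNT reads (20714 reads, 0.382% to 0.393%). These intervals overlap, and they cover counting error only.

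**Figure D3:**
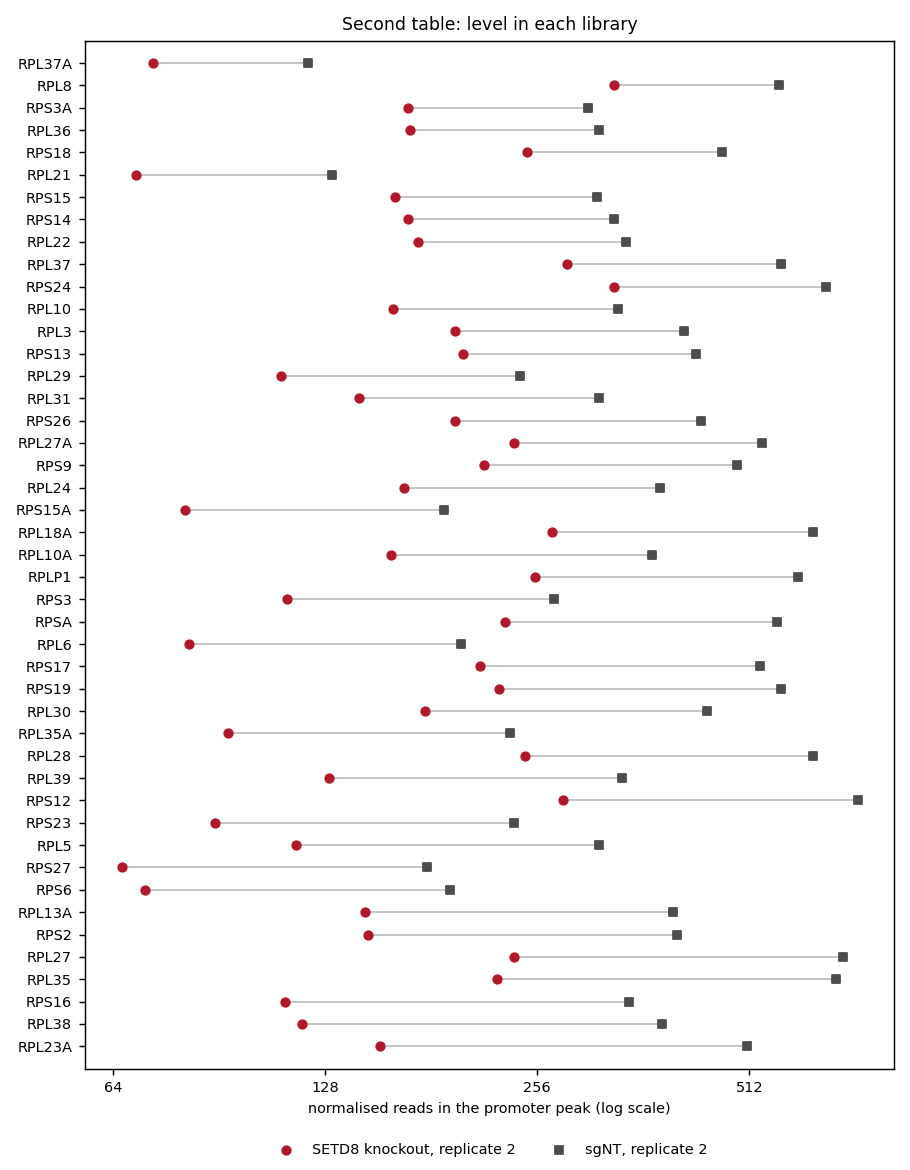
Normalised reads (x axis, log scale) in the promoter peaks of the ribosomal protein genes, with 1 of the 46 not shown (y axis, by fold change), in the SETD8 knockout library (red circles) and the sgNT library (grey squares) of replicate 2. The knockout point lies left of the sgNT point in every row, between 66 and 329 reads against 121 to 729.

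Counting error sets how finely members can be ordered in the second table. Its standard error on a log2 fold change was 0.134 at the median member (range 0.0961 to 0.212), and its root mean square was 0.141. The SD over the 46 members was 0.240, so the spread was wider than counting alone gives. Over all promoter peaks the SD was 0.298, with a root mean square counting error of 0.1455. The 95% counting interval left out the promoter median for 15 of 46 members, 10 above it and 5 below, where 34.7% of all promoter peaks did so. Those above were RPL8, RPL22, RPL36, RPL37, RPL37A, RPS3A, RPS14, RPS15, RPS18 and RPS24, and those below RPL23A, RPL27, RPL35, RPL38 and RPS16. Set against the median of the other peaks within 2.5 Mb on either side, the interval left out that neighbourhood median for 8 of 46, beside 30.8% of promoter peaks. RPL37, RPL37A, RPS3A and RPS18 stood above their neighbourhood, and RPL30, RPLP1 and RPS16 were among those below it.

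Large subunit genes, whose proteins surround an RNA core that forms the peptide bonds, made up 30 members. Their median was -0.83 in the first and -1.23 in the second table, over 26 genes, with 8 of 30 and 21 of 26 lower by at least 1 (42.0% and 82.8% of all promoter peaks). The 22 small subunit genes, which read the message, had medians of -0.86 and, over 20 genes, -1.27, with 9 of 22 and 16 of 20 lower by at least 1. Both subunits therefore lay within 0.1 of the promoter median in either table.

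RPL8, whose protein reaches close to the peptidyl transferase centre formed by ribosomal RNA, had the highest mean over both tables relative to the promoter median. Its peak on chromosome 8 at 144792236 to 144792927 had 329 normalised reads in the knockout library and 564 in the sgNT library. The fold change was 0.34 in the authors' first deposited table (p = 0.75, adjusted p = 0.841) and -0.78 in the authors' second deposited table (p = 0.564, adjusted p = 0.615), which is 1.26 and 0.48 above the promoter medians. Peaks around it had medians of -0.55 and -0.85, so RPL8 stood well above its neighbourhood in the first table and 0.07 above it in the second, within its counting error of 0.0985. The limma fit on centred values gave it 0.88 with an adjusted p of 0.151. RPL30, the other member on chromosome 8, had -0.86 and -1.33 in the authors' first and second deposited tables, with 177 knockout and 446 sgNT normalised reads, and its neighbourhood medians were -0.67 and -0.83. On chromosome 8, RPL8 was thus above the promoter median in both tables, while RPL30 stood at 0.06 and -0.07 relative to it.

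RPL36, RPL10, RPL22, RPL21 and RPS2 completed the upper end. RPL36, of the 60S surface, had 169 normalised reads in the knockout library and 313 in the sgNT library, and it stood 0.85 and 0.38 above the promoter median in the first and second table. RPL10, which joins the 60S late and is mutated in some T-cell leukaemias, had 160 knockout and 333 sgNT normalised reads and stood 0.94 and 0.20 above. RPL22, lost in some T-cell leukaemias, had 174 and 342.5 and stood 0.65 and 0.28 above. RPL21 had 69.1 knockout and 131 sgNT normalised reads, the lowest sgNT level but that of RPL37A, and stood 0.46 and 0.34 above with a counting error of 0.212. RPS2, at the entry of the message channel, differed between the tables. With 147 normalised reads in the knockout library and 404.5 in the sgNT library, it stood at -0.20 relative to the promoter median in the second table and at 0.93 in the first.

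At the lower end stood RPS16, RPS6, RPL38, RPL35, RPL27 and RPLP1. RPS16, a 40S head protein, had 112 normalised reads in the knockout library and 345 in the sgNT library. Its fold changes were -1.68 and -1.62 in the authors' first and second deposited tables (adjusted p = 0.731 and 0.578), or -0.76 and -0.36 relative to the promoter medians, while its neighbourhood on chromosome 19 stood at -0.73 and -1.24. It was lower than its surroundings in each table. RPS6, the substrate of S6 kinase in the mTOR pathway, had 71.0 knockout and 193 sgNT normalised reads and stood at -1.73 and -1.44 in the authors' first and second deposited tables. Relative to the promoter median it stood at -0.81 in the first and -0.18 in the second table, where its counting error was 0.198.

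RPL38, RPL27 and RPL23A are the members on chromosome 17, where the promoter median was -1.055 in the first and -1.55 in the second table. RPL38, needed for translation of Hox messages in mice, had 119 normalised reads in the knockout library and 385 in the sgNT library, and its fold changes were -1.43 and -1.69 in the authors' first and second deposited tables. RPL27 had 237 knockout and 695 sgNT normalised reads, with -1.32 and -1.55 in the authors' deposited tables. RPL23A, a 60S protein near the exit tunnel, had 153 and 508.5, with -0.98 and -1.73 in the authors' deposited tables. Their neighbourhood medians in the second table were -1.60, -1.60 and -1.615, and for each of these 3 the counting interval held the neighbourhood median. On chromosome 9, where promoters stood at -1.21 and -1.53, RPL35 had 224 knockout and 680.3 sgNT normalised reads and -1.47 and -1.60 in the authors' deposited tables, RPL12 had -1.21 in the authors' first deposited table and no peak in the second, and RPS6 has been given above. Promoters of chromosomes 9 and 17 as a whole were thus lower than the promoter median of either table, -0.92 and -1.26. The neighbourhood medians of RPL35 were -1.17 and -1.42, below those values in both tables. Around RPS6 they were -0.945 and -1.09, near the promoter median in the first table and above it in the second. The part of the chromosome-wide values in the low values of these members was not tested.

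The stalk proteins RPLP0, RPLP1 and RPLP2 recruit elongation factors to the ribosome. RPLP1 had 254 normalised reads in the knockout library and 600.5 in the sgNT library. Relative to the promoter median it stood at -0.56 in the first and 0.02 in the second table, where its neighbourhood median was -0.92 against its own -1.24 in the authors' deposited table. The peaks over the starts of RPLP0 and RPLP2 were annotated to PXN-AS1 and PIDD1. RPLP0 had 186 knockout and 592 sgNT normalised reads, at -0.41 relative to the promoter median of the second table and 0.46 relative to that of the first. RPLP2 had 317 and 729, and stood 0.27 and 0.06 above the promoter medians. The 3 stalk genes therefore did not share a direction relative to other promoters.

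Some genes held different places in the tables. RPL37A, a zinc-binding 60S protein, had 73.0 normalised reads in the knockout library and 121 in the sgNT library, and it stood at -0.49 relative to the promoter median in the first and at 0.53 in the second table. RPS2 and RPL8, given above, were the others with the largest differences, of 1.13 and 0.78, against -1.02 for RPL37A (first minus second). RPS14, whose loss underlies the anaemia of a myelodysplastic syndrome with a chromosome 5 deletion, had 168 knockout and 329 sgNT normalised reads and stood at -0.43 in the first and 0.29 in the second table on that relative scale. RPSA, with 231 and 560.3, stood at 0.13 and -0.02.

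**Figure D4:**
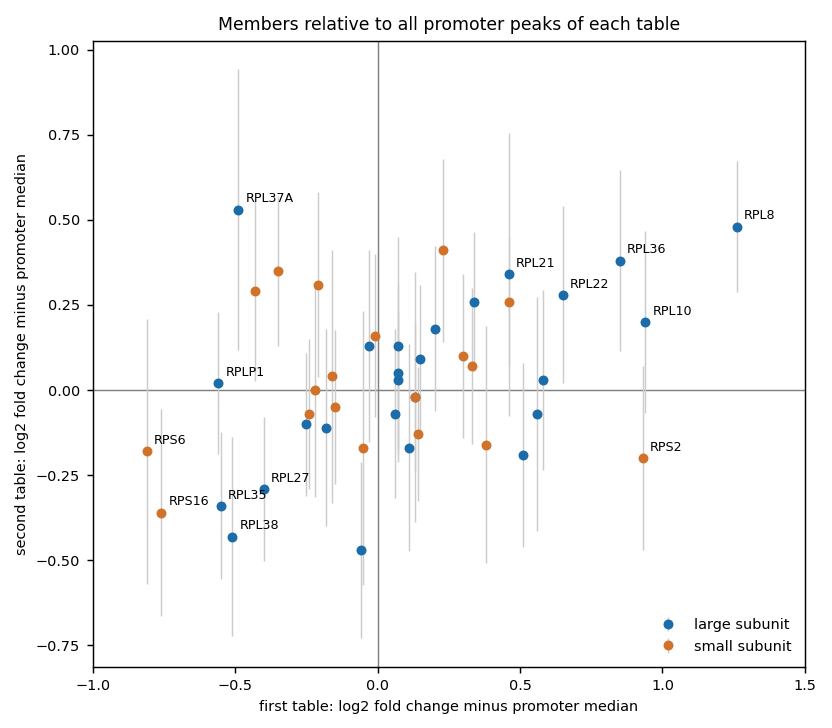
Log2 fold change minus the promoter median of the same table, first table (x axis) against second table (y axis), for the ribosomal protein genes in both, with 1 of the 46 not shown, coloured by subunit (RPLP1 as large). Bars are 95% counting intervals of the second table. RPL8 (1.26 and 0.48) and RPL36 (0.85 and 0.38) lie high on both axes and RPS16 (-0.76 and -0.36) low on both, while RPL37A and RPS2 lie in opposite corners.

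The 6 members with no peak in the second table were RPL12, RPL14, RPL32, RPL41, RPS4X and RPS7. Their median mean level in the first table was 6.96 on the log2 scale, against 7.97 for the other members, and their median peak width 454 bp. The ranges overlapped: joined RPS27 and RPL21 had lower mean levels, 63.6 and 73.5 normalised reads, than RPL14 with 160 and RPL41 with 186 among these 6.

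The annotation left out 25 ribosomal protein genes, and most of them were open too. A peak of the first table covered the RefSeq start of 20 of these (for 5 of the 25 genes, with no strand in the reference table, either end of the gene), and the annotation gives it to a divergent gene, a small RNA within the gene or a read-through transcript. Peaks over RPL13 and RPL23 were named SNORD68 and SNORA21B, those over RPL17, RPL36A and RPS10 RPL17-C18orf32, RPL36A-HNRNPH2 and RPS10-NUDT3, and those over RPL18, RPL4 and RPS28 SPHK2, ZWILCH and NDUFA7. A further 4 genes, among them RPL7A, RPL11 and RPS21, had a peak in the second table only, and RPL19 had none in either. The 20 peaks had medians of -0.68 and, over the 19 also in the second table, -1.21. Over all starts under a peak the medians were -0.79 (72 genes) and -1.23 (69 genes). Lower by at least 1 were 23 and 57, beside 42.0% and 82.8% of all promoter peaks.

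Far from the promoter median in 1 table each were RPL34, RPS10 and RPL26. RPL34 had 70.0 normalised reads in the knockout library and 302 in the sgNT library, and stood at 0.35 relative to the promoter median of the first table and -0.85 relative to that of the second, with a counting error of 0.19. RPS10 had 99.0 and 212, and stood at -0.82 and 0.16. RPL26, with 111 and 271, stood at 0.86 and -0.03. These 3 were named after their values were seen.

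RPL5 and RPL11 of the 5S particle, and RPL23, which also binds MDM2, had values on either side of the promoter median. RPL5 had 116 normalised reads in the knockout library and 313 in the sgNT library, and stood at 0.11 relative to the promoter median of the first table and -0.17 relative to that of the second. RPL11, with 83.9 and 138, stood at 0.54 in the second table, and RPL23, with 121 and 362, stood at -0.77 and -0.32. Of 20 Diamond-Blackfan anaemia genes 12 were members. Their medians were -0.96 in the first and -1.33 in the second table, over 11 genes, with 5 of 12 and 4 of 11 above the promoter median. Lower by at least 1 were 5 of 12 and 11 of 11, beside 42.0% and 82.8% of all promoter peaks. The remaining listed genes, which are not members, lay on either side of the promoter median. Relative to it, second-table values were 0.54 (RPL11), 0.23 (RPS28), 0.22 (RPS20), 0.16 (RPS10), 0.06 (RPL18), 0.05 (RPL15), 0.03 (RPS29) and -0.03 (RPL26). First-table values were 0.86 (RPL26), 0.55 (RPS28), 0.33 (RPL18), 0.27 (RPS20), -0.08 (RPL15), -0.57 (RPS29) and -0.82 (RPS10). Among the 12 members RPL35 and RPL27 were the lowest, given above. RPS24 was among the highest, with 329 knockout and 657 sgNT normalised reads and 0.46 and 0.26 above the promoter medians. RPL35A, with 93.05 and 234, stood at 0.56 and -0.07. RPS19, the gene most often mutated in that disease, had 226 and 568 and stood at -0.24 and -0.07.

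Related gene lists lay near the same medians. Of all promoter peaks, 42.0% in the first and 82.8% in the second table were lower by at least 1. Mitochondrial ribosomal proteins, which translate mitochondrial messages, had medians of -0.91 (53 genes, -1.97 to 0.26) in the first table and -1.28 (49 genes, -2.02 to -0.58) in the second, with 25 of 53 and 41 of 49 lower by at least 1. Ribosome biogenesis factors had -0.985 (32 genes, -1.71 to -0.23) and -1.34 (29 genes, -1.78 to -0.64), with 16 of 32 and 27 of 29. The other genes with TOP messages, such as elongation factors and PABPC1, had -0.93 (15 genes, -1.15 to -0.24) and -1.155 (12 genes, -1.44 to 0.07, the upper value being that of EEF1A1), with 6 of 15 and 8 of 12. A gene of that list stood apart in the second table. EEF1A1, which brings aminoacyl-tRNA to the ribosome, had 35610 normalised reads in the knockout library and 34160 in the sgNT library at a peak on chromosome 6 from 73519982 to 73521297, 1.70% and 0.696% of the normalised reads in peaks, whereas its promoter peak in the first table had a mean of 873. Whether the reads of the second table come from the gene's own locus or from copies of that sequence elsewhere was not tested, so they are not given as accessibility of that promoter. None of the 46 members had such a level, the highest being 329 knockout and 729 sgNT normalised reads. The difference between the ribosomal protein genes and these lists was not tested.

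**Figure D5:**
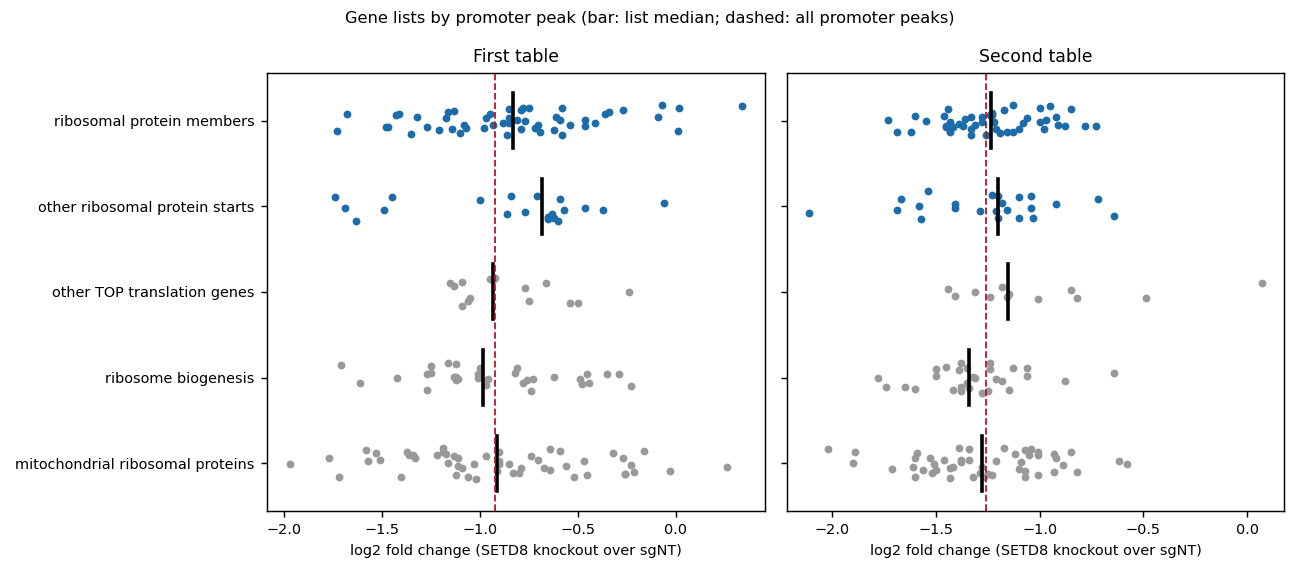
Log2 fold change of SETD8 knockout over sgNT (x axis) for the ribosomal protein members, the ribosomal protein starts whose peak carries another name or lies in the second table only, and 3 related lists (rows), in the first (left) and second (right) table. Points are genes, black bars list medians and the dashed line the median of all promoter peaks; member medians are -0.83 and -1.235, and the far right point of the second table is EEF1A1.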

How the data were processed

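Libraries were made from Kasumi-1 cells with a one-step ATAC-seq kit and sequenced in pairs, per the labels' protocols, and groups were taken from sample titles. Build hg38, MACS2 2.1.2, ChIPseeker, Bowtie2, cutadapt, deepTools and SAMtools appear in the submitters' processing notes. How duplicates, the transposase offset and the scaling between libraries were handled the sources used here do not say. For each peak the authors deposited log2 levels, a log2 fold change of knockout over sgNT, and a p-value with its adjusted form. Columns of the first deposited table are numbered and were identified by order and range, and its 2 columns in the place of single libraries were not used, because they name none. No read counts of all 4 libraries were used, so the planned count test was not run and the authors' p-values stand in its place.

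Log2 levels were turned into normalised reads. Of the weak values checked in the second table, 100.0% were whole reads in the knockout library (195 values) and 100.0% were whole reads times 0.918 in the sgNT library (144 values), within 0.005 on the log2 scale, which gave the reads behind counting errors. Reads were not counted by molecule, so intervals cover counting error only, and the depth of the first table's libraries is unknown. Peaks of the 2 tables were joined by the largest overlap of at least 1 bp. Nothing says that libraries of a group came from separate cultures, so their spread may be technical.

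Members and gene lists were chosen with earlier results of these data known. Genes with the 6 highest and 6 lowest mean values relative to the promoter median, the 3 highest and 3 lowest levels and the 3 largest differences between tables were named, with the stalk genes and RPSA. Some items under this rule are not reported here. Joined peaks were fitted with limma 3.58.1 in R 4.3.3, and all else was computed in Python 3.11.15 (scipy 1.17.1, pandas 2.3.3, numpy 2.4.6, matplotlib 3.10.9). Tested on simulated data for 11117 peaks with a noise SD of 0.325, that fit found 84 of 100 peaks made to change by 1 on the log2 scale, 100 of 100 made to change by 2, and 7 of 10917 left unchanged. The simulated noise was independent, had the same SD in both columns and held no shared shift. In the data the SD over promoter peaks was 0.45 in the first and 0.298 in the second table, so these rates need not hold there. Alternatives covered the choice of peak, a level filter, level and neighbourhood trends, chromosomes, overlap, centring, fold size and the limma fit on both tables.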

Additional observations from a re-analysis of the deposited data

How the results depend on the processing

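Of 73 alternative values 61 stayed close to the value reported. A median or difference counted as close within 0.134, the counting error of the median single member in the second table. Counts past a fold size or above the promoter median counted as close within a factor of 1.5, and counts passing a p threshold only if equal. The member differences from the promoter median, 0.09 and 0.025, are smaller than 0.134, so a difference of 0 also counted as close. In the second table it was 0 without chromosomes 2, 8, 9 and 17. Taking the peak nearest the start changed no value in either table, nor did the stricter overlap in the second. These settings therefore raised the 61 without putting the reported values to a test. Medians stayed close under the choice of peak, the level filter, the level trend and the overlap, and without chromosomes 2, 8, 9 and 17. Centring on all peaks turned the member median of the first table to 0.04, moved that of the second to -0.005 and left 0 members lower by at least 1 in either table, by its construction. Members lower by at least 1 in the first table numbered 11 of 36 with the level filter and 11 of 41 without those chromosomes. At fold sizes of 0.5 and 1.5 they numbered 41 and 2 of 52. Past 1.5 in the second table were 5 of 46 members. Over all starts under a peak, where more genes enter, 57 of 69 were past 1, beside 82.8% of all promoter peaks. For the level filter, the chromosomes and the other fold sizes the share of all promoter peaks was not computed. Those counts are therefore not read as a result about the members. The difference from the promoter median was -0.0275 in the second table with the neighbourhood trend removed, an alternative chosen after seeing the data, as was that over all starts. The limma fit on both tables called 43 members in place of 0 in the first table and 43 in place of 0 in the second as deposited, and 0 once centred. Whether libraries of 1 number pair, and the effect of leaving out a library, could not be computed, because the first table names none. At the median member of the second table counting error limits differences below about 0.134.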

Other observations

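Of 8 paralogs of ribosomal protein genes outside the member rule 4 had a promoter peak in each table: RPL7L1, RPL22L1, RPL39L and RPS27L. RPL22L1, the paralog of RPL22, had 197 normalised reads in the knockout library and 399 in the sgNT library and stood at -0.19 relative to the promoter median of the first table and 0.24 relative to that of the second, where RPL22 stood at 0.65 and 0.28. RPS27L, a p53 target related to RPS27, had 218 and 508.5 and stood at -0.58 and 0.04. All 4 stood above the promoter median of the second table, with a list median of -1.175, and 1 of 4 did so in the first.

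Members whose promoter window held CTTTCC stood at medians of -1.10 (19 genes, first table) and -1.295 (18 genes, second table), against -0.71 (22 genes) and -1.165 (18 genes) for those without. This is 1 of 11 sequence features looked at, was noticed after the values were seen and was not tested. The 5 members whose peak also covers the start of another coding gene (RPL12, RPL27A, RPL35, RPL35A and RPS18) stood at a median of -1.21 in the first table, against -0.81 for the other 47, and over 4 of them at -1.25 in the second, against -1.235 for 42.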
